A study of Drosophila melanogaster with 38 samples.

Results

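The vacuolar ATPase (V-ATPase) genes of Drosophila melanogaster were taken as every gene whose symbol on the array platform starts with Vha, plus ATP6AP2. They numbered 32 of the 11982 genes that the platform annotation names, and each was read from the probe set with the highest mean over the 36 arrays at 2 to 72 hours. Of the 32 genes, 21 had a mean log2 score of at least 6 and were tested, 8 of them subunits of the V1 part of the pump, 10 of the V0 part and 3 accessory proteins. The other 11 had means of 3.38 to 5.45 and are described separately. Vha68-1 and Vha68-2, which encode catalytic subunit A of V1, were not analysed here, because the annotation used names no probe set for them.

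The V-ATPase is a rotary proton pump. Its V1 part, in the cytoplasm, splits ATP and turns a central shaft, and its V0 part, in the membrane, carries protons through the junction of a large a subunit with a rotating ring of proteolipids. The pump acidifies lysosomes, endosomes and synaptic vesicles, and it energises the apical membranes of insect gut and Malpighian tubule cells. The lysosomal pump also works with the Ragulator and Rag proteins that bring the TOR kinase to the lysosome, and in flies the transcription factor Mitf drives V-ATPase genes.

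Canton-S females, housed with males, lived either on control food (CF, sucrose at 150 g/L and yeast at 150 g/L) or on restricted food (RF, each at 50 g/L). At 40 days of age some of the CF flies were moved to restricted food, and these formed the switched cohort (SF). Heads and thoraces of at least 75 females were pooled for each array, with 1 array for each cohort at each of 12 hours from 2 to 72 hours after the switch and no replicate array within an hour. CF and RF also had 1 array each at 0 hours, which stayed outside the tests. No source says that the pools of different hours came from separately raised populations, so p values measure the spread between hours.

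The markers of the labelled tissue were present, with mean scores between 6.45 and 7.87 for neuron genes, 7.46 and 9.48 for photoreceptor genes and 8.79 and 10.48 for flight muscle genes over the 36 arrays. The median score of an array ran from 5.84 to 6.13, so the lowest neuron means lay close to it. Genes of the eggshell, which is made in the ovary, were also detected, and the mean of the 11 found ran from 10.20 to 13.10. So were midgut genes (mean of 7, from 11.09 to 12.40) and Malpighian tubule genes (mean of 4, from 8.58 to 9.02). The label names none of these 3 organs, and their means all lay above those of the neuron genes. The 0 h arrays stood apart, with an eggshell mean of 8.57 in CF and 5.66 in RF. Their neuron (8.27 in CF and 8.34 in RF), photoreceptor (9.83 and 10.26) and flight muscle (10.65 and 10.82) means lay above the ranges of the 36 arrays. As the tissue is a mixture, fewer cells of a type and less RNA per cell cannot be told apart.

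V-ATPase genes were mostly higher in flies kept on restricted food than in flies on control food, by small amounts. Of the 21 genes 19 had a positive RF minus CF difference, with a median of 0.08 on the log2 scale, while 46.1% of all 9420 tested probe sets were positive and their median was -0.01. Vha100-4, one of the genes of the large a subunit of V0, and Vha14-1, the gene of the F subunit in the V1 shaft, passed the test, both higher in RF. That is 2 of 21 genes called by limma at an adjusted p under 0.05, where 7.42% of all tested probe sets were called and 4.77% were called higher in RF. At an unadjusted p under 0.05 there were 13 of 21 genes (12 of them higher in RF), against 23% of all probe sets. The RF array was the higher one at 11 or 12 of the 12 hours for 6 genes (Vha36-1, Vha14-1, Vha100-4, VhaPPA1-1, VhaM9.7-b and VhaM9.7-c), and this held for 4.99% of all probe sets. The median over the members was positive with every alternative tried, from 0.07 to 0.09. The count of called members went from 0 to 6 with the same alternatives, and 23 of 26 alternatives called Vha100-4.

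**Figure D1:**
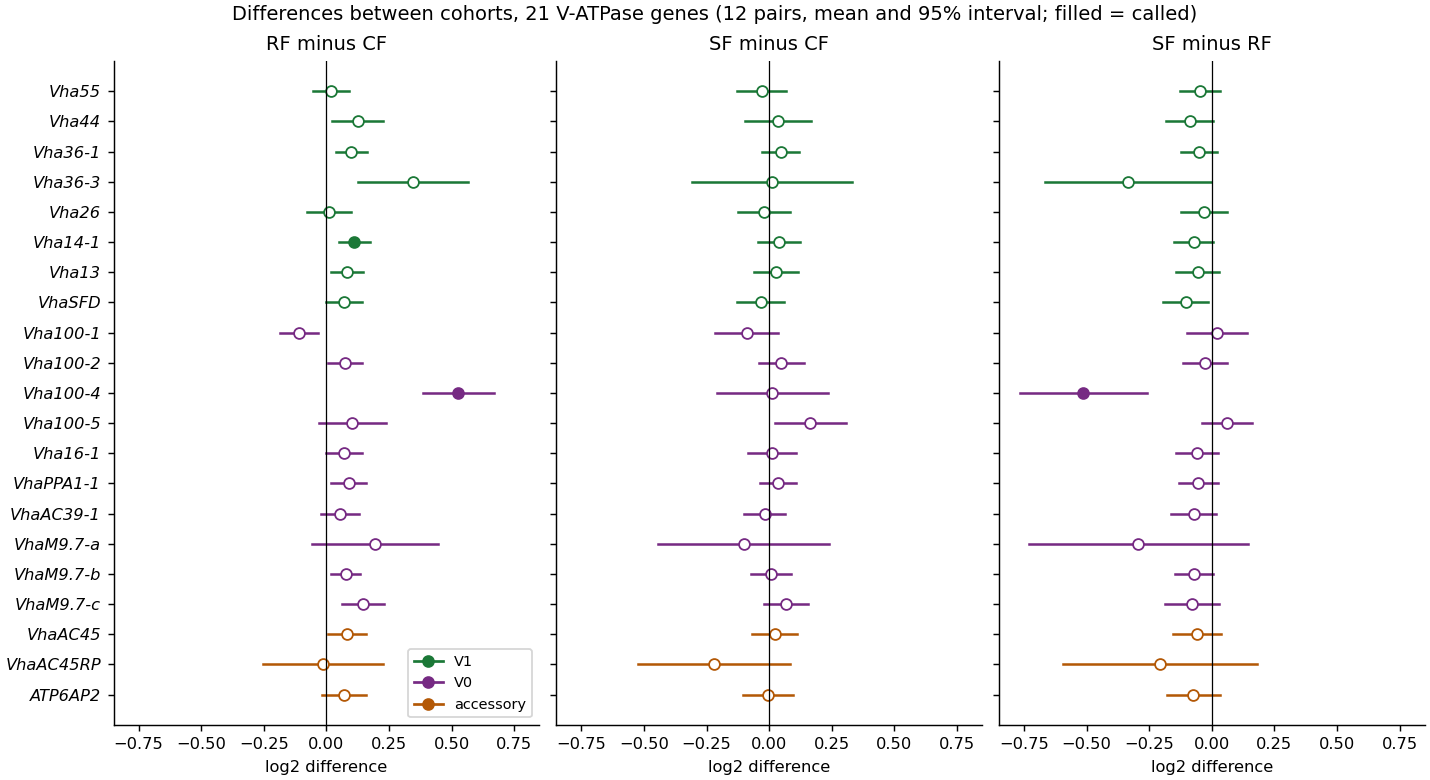
Differences between cohorts (log2, horizontal axis) of the 21 tested V-ATPase genes, with the mean of 12 same-hour pairs as a point, the 95% confidence interval as a line and called genes filled. In RF minus CF 19 points lie right of 0, with Vha100-4 farthest out at 0.53, and in SF minus CF the points lie on either side of 0.

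Vha100-4 was the member with the largest rise in RF. It scored between 8.57 and 9.22 with a median of 8.78 in CF, between 8.77 and 9.68 with a median of 9.39 in RF, and between 8.11 and 9.23 with a median of 9.05 in SF. The ranges overlap across hours, but within each of the 12 hours the RF array was above the CF array. RF minus CF was 0.53 (SE 0.066, adjusted p = 0.000495 by limma), a ratio of 1.44 with a 95% confidence interval of 1.30 to 1.59, and the exact sign-flip test over the 12 hours gave p = 0.000488, the smallest it can give. The smallest differences stood at 4 hours (0.16), 2 hours (0.18) and 12 hours (0.18), and the largest at 8 hours (0.90). The call held without any 1 of the hours (0.49 to 0.56, adjusted p = 0.000377 to 0.00192) and was lost at 2 to 18 hours alone (0.46, adjusted p = 0.359), where 17 of all probe sets were called.

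The 0 h pair went the other way for this gene, which was at 8.43 in CF and at 6.49 in RF, below every other array of the series. With that pair added the difference was 0.34 and no longer passed (adjusted p = 0.416). On the same RF array the eggshell mean of 5.66 and the midgut mean of 10.56 also lay below their ranges at 2 to 72 hours, which began at 10.20 and 11.09. Both means were below those ranges on the CF array of 0 hours as well, at 8.57 and 10.70. The midgut genes were not alike on the RF array of 0 hours. Jon65Ai (6.47 against a mean of 9.69 over the 36 arrays), Jon66Ci, Jon99Fi and Jon99Ci were below their means. The trypsin genes betaTry (14.85 and 14.85) and alphaTry (14.53 and 14.57) were near theirs, and Jon25Bii was above its own (10.14 and 9.74). The Malpighian tubule mean, at 8.48 in CF and 7.87 in RF, also lay below its lowest value at 2 to 72 hours, 8.58. The neuron, photoreceptor and flight muscle means of both 0 h arrays lay above their ranges. The part of these transcripts in the value was not tested.

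Over the 36 arrays the score of Vha100-4 followed the mean of 7 midgut genes (r = 0.685 and rho = 0.702, permutation p = 1e-05 for each, the smallest that 100000 permutations can give, and adjusted p = 7.6e-05 and 8.4e-05 over 84 relations), and r was 0.663 without the 2 arrays farthest from the median. The permutations exchanged all 36 arrays without regard to cohort or hour, so their p values also take in differences between cohorts and hours. Within the cohorts r was 0.448 in CF, -0.197 in RF and 0.826 in SF, so the relation did not hold within RF. Between the same-hour differences r was 0.188 in RF minus CF, 0.672 in SF minus CF and 0.253 in SF minus RF, a description over the 12 hours. The midgut mean was 11.53 ± 0.26 (SD, n = 12) in CF, 12.07 ± 0.21 in RF and 11.64 ± 0.28 in SF, and 5 of the 7 genes were called higher in RF, from Jon99Ci at 0.49 (adjusted p = 0.0223) to Jon25Bii at 0.92 (adjusted p = 0.00452), while the trypsin gene betaTry was at 0.02 (adjusted p = 0.723). With the midgut difference as a covariate, chosen after seeing the data, Vha100-4 was at 0.44 (SE 0.16, adjusted p = 0.349) and 32 of all probe sets were called. That value is fitted for equal midgut means, which none of the 12 hours had, since RF minus CF of the midgut mean ran from 0.15 to 0.97. The other a subunit genes differed less in RF minus CF, with Vha100-2, the direct neighbour of Vha100-4 in the genome, at 0.08 (SE 0.032, adjusted p = 0.287). The differences between these paralogs were not tested.

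**Figure D2:**
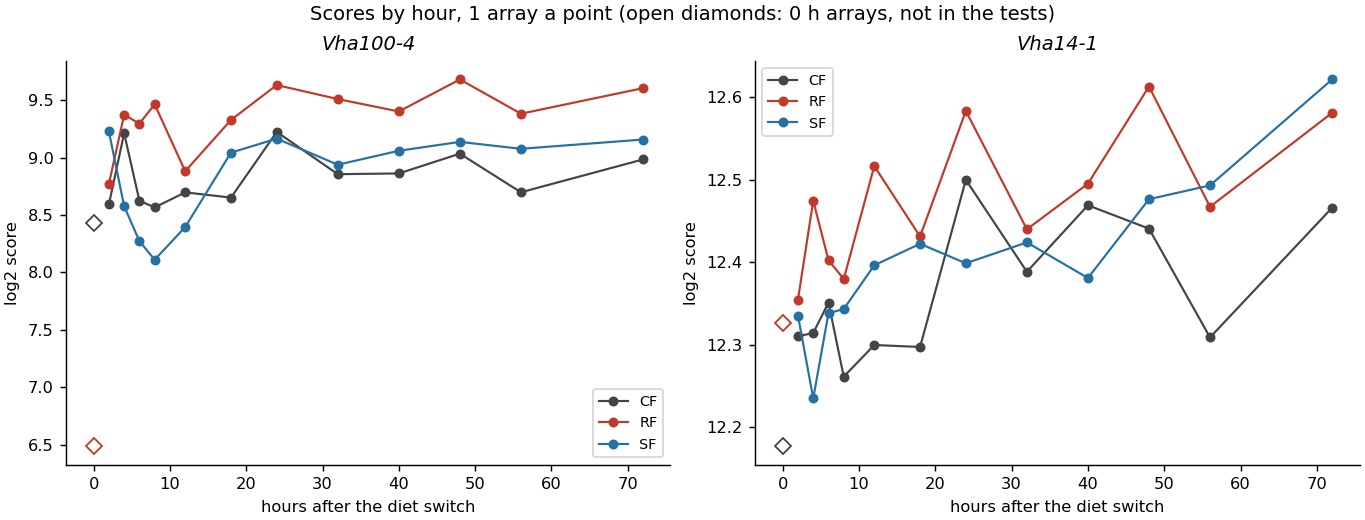
Log2 scores (vertical axes) of Vha100-4 and Vha14-1 against hours after the diet switch, with 1 array a point, the cohorts as colours and the 0 h arrays as open diamonds. For both genes the RF line lies above the CF line at each of the 12 hours, and for Vha100-4 the RF diamond at 6.49 lies below all other points.

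The 8 tested V1 genes were all positive in RF minus CF, with a median of 0.09 and a range of 0.01 to 0.34, and 6 of them had an unadjusted p under 0.05. On the 0 h pair, outside the tests, 6 of the 8 were negative, with a median of -0.125. Vha14-1 scored 12.26 to 12.50 with a median of 12.33 in CF, 12.36 to 12.61 with a median of 12.47 in RF and 12.24 to 12.62 with a median of 12.40 in SF. The cohorts overlap over the whole course, and RF was above CF at 12 of 12 hours. The difference was 0.11 (SE 0.028, adjusted p = 0.0458), a ratio of 1.08 with an interval of 1.04 to 1.13 (exact sign-flip test, p = 0.000488). This call was at the edge of the threshold, since it ended when any single hour was left out (adjusted p = 0.0523 to 0.108) and when arrays were centred on their medians (0.09, adjusted p = 0.242).

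Vha36-1, which encodes the D subunit of the shaft, was likewise higher in RF at 12 of 12 hours, at 0.10 (SE 0.029, adjusted p = 0.0826). Its paralog Vha36-3 had the largest V1 difference, 0.34 (SE 0.10, adjusted p = 0.0921), positive at 10 of 12 hours. Vha44, the gene of the C subunit that joins V1 to V0, was at 0.12 (SE 0.047, adjusted p = 0.212). None of these 3 passed the test. VhaSFD, the gene of regulatory subunit H, was at 0.07 (SE 0.033, adjusted p = 0.337).

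Vha13, which encodes the G subunit of the peripheral stalk and has the highest mean score of the V1 genes, ran from 13.09 to 13.39 with a median of 13.22 in CF, from 13.11 to 13.48 with a median of 13.32 in RF and from 13.16 to 13.36 with a median of 13.24 in SF. These ranges nearly coincide. RF minus CF was 0.08 (SE 0.030, adjusted p = 0.18), SF minus CF 0.03 (SE 0.041, adjusted p = 0.774) and SF minus RF -0.06 (SE 0.040, adjusted p = 0.543). Vha55 and Vha26, the genes of the nucleotide-binding B subunit and of the E subunit of the stalk, were at 0.02 (SE 0.034) and 0.01 (SE 0.041) in RF minus CF. The 95% interval of Vha55 ran from -0.05 to 0.09 and that of Vha26 from -0.08 to 0.10.

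Of the 10 tested V0 genes 9 were positive in RF minus CF, with a median of 0.08. VhaM9.7-c and VhaM9.7-b, which encode forms of the small e subunit, were at 0.15 (SE 0.039, adjusted p = 0.059) and 0.08 (SE 0.026, adjusted p = 0.158), each positive at 11 of 12 hours. VhaPPA1-1, the gene of a proteolipid of the ring, was at 0.09 (SE 0.032, adjusted p = 0.182), also positive at 11 hours. VhaAC39-1, the gene of the d subunit that couples the ring to the shaft, was at 0.06 (SE 0.035, adjusted p = 0.502). None of these V0 genes passed the test.

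Vha16-1, the gene of the main ring proteolipid c and the V0 gene with the highest mean score, ran from 13.65 to 13.92 with a median of 13.78 in CF, from 13.79 to 14.03 with a median of 13.85 in RF and from 13.64 to 13.95 with a median of 13.81 in SF. RF lay slightly higher at 10 of 12 hours. RF minus CF was 0.07 (SE 0.034, adjusted p = 0.344), SF minus CF 0.01 (SE 0.045, adjusted p = 0.909) and SF minus RF -0.06 (SE 0.039, adjusted p = 0.523). Its other probe set was at -0.01 (adjusted p = 0.941), 0.11 (adjusted p = 0.273) and 0.12 (adjusted p = 0.266) in the same order, so the direction against RF depends on the probe set.

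Vha100-1, the a subunit gene known for its role at synapses, was the member with the most negative RF minus CF difference. It ran from 9.88 to 10.24 with a median of 10.08 in CF, from 9.77 to 10.11 with a median of 9.97 in RF and from 9.72 to 10.17 with a median of 10.01 in SF. RF was the lower array at 10 of 12 hours. The RF minus CF difference was -0.11 (SE 0.036, adjusted p = 0.131), SF minus CF was -0.09 (SE 0.059, adjusted p = 0.511) and the SF minus RF difference 0.02 (SE 0.056, adjusted p = 0.888), none of which passed.

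Vha100-5, another a subunit gene, had the largest positive SF minus CF and SF minus RF differences. It ran from 9.90 to 10.51 with a median of 10.19 in CF, from 9.98 to 10.48 with a median of 10.38 in RF and from 9.95 to 10.64 with a median of 10.47 in SF. The cohorts overlap widely. SF minus CF was 0.16 (SE 0.066, adjusted p = 0.247), positive at 9 of 12 hours, the SF minus RF difference was 0.06 (SE 0.046, adjusted p = 0.567) and RF minus CF was 0.10 (SE 0.062, adjusted p = 0.486).

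Among the accessory proteins, VhaAC45, whose product is a membrane protein of the assembled pump, has the highest mean score. It ran from 12.33 to 12.70 with a median of 12.56 in CF, from 12.42 to 12.83 with a median of 12.60 in RF and from 12.38 to 12.69 with a median of 12.59 in SF, so the cohorts shared most of their range. RF minus CF was 0.08 (SE 0.036, adjusted p = 0.304), SF minus CF 0.02 (SE 0.041, adjusted p = 0.825) and SF minus RF -0.06 (SE 0.045, adjusted p = 0.565). In RF minus CF, ATP6AP2, the gene of another accessory protein, known in mammals as the (pro)renin receptor, was at 0.07 (SE 0.042, adjusted p = 0.481).

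After the switch to restricted food, the V-ATPase genes as a group had a median close to the control level on the deposited scores. Of the 21 genes 13 were positive in SF minus CF, with a median of 0.01, where 53.8% of all probe sets were positive with a median of 0.01. With arrays centred on their median, 16 of 21 were positive with a median of 0.03, against 62.5% of all probe sets and a median of 0.03. Centred in that way, the RF minus CF median of the members was 0.07 and the SF minus RF median -0.03. On that scale SF lay between CF and RF, but the SF minus CF median of the members was near that of all probe sets. By limma 0 of 21 were called, against 1.8% of all probe sets, with 1 (Vha100-5) at an unadjusted p under 0.05, and the paired t-test of the methods called 0 as well. The V1 median was 0.02 and the V0 median 0.01. The lowest difference was that of VhaAC45RP, an Ac45-related gene, which ran from 8.23 to 9.22 with a median of 8.58 in CF, from 7.82 to 9.31 with a median of 8.60 in RF and from 7.56 to 9.02 with a median of 8.45 in SF. Its SF minus CF difference was -0.22 (SE 0.14, adjusted p = 0.508), the SF minus RF difference -0.21 (SE 0.18, adjusted p = 0.619) and RF minus CF -0.01 (SE 0.11, adjusted p = 0.967), with the groups overlapping throughout.

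Between switched flies and flies kept on restricted food, 19 of 21 genes were lower in SF (47.3% of all probe sets were), with a median of -0.07. With arrays centred on their median the members' median was -0.03, with 17 of 21 lower, against 36.9% of all probe sets and a median of 0.05 over them. By limma 1 of 21 was called, lower in SF, where 1.95% of all probe sets were called and 1.51% were called lower in SF. This comparison shares the RF arrays with RF minus CF, so the direction of one is not independent of the other. Vha100-4 was the gene called, at -0.51 (SE 0.12, adjusted p = 0.0284), a ratio of 0.70 with an interval of 0.59 to 0.84, lower in SF at 11 of 12 hours (exact sign-flip test, p = 0.00293). Its SF minus CF difference was 0.01 (SE 0.10, adjusted p = 0.963), with an interval of -0.21 to 0.24. The SF minus RF call ended without 6, 24, 32, 40, 48 or 72 hours (adjusted p = 0.0506 to 0.0622) and with the midgut covariate (-0.33, adjusted p = 0.7), under which 9 of all probe sets were called. Of the midgut genes, 3 of 7 were called lower in SF than in RF.

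The small SF minus CF mean of Vha100-4 held differences of either sign. At 2 hours the SF array was above CF by 0.63 and at 4, 6, 8 and 12 hours it was below CF, at -0.63, -0.35, -0.46 and -0.30. The SF score fell to 8.11 at 8 hours, the lowest of the 36 arrays, and was between 8.94 and 9.16 from 24 hours on, where SF minus CF ran from -0.06 to 0.38. With 1 array at each hour these swings have no replicate. The SF arrays of 4, 6 and 8 hours also had the lowest midgut means of SF, at 11.22, 11.16 and 11.33. The SF array of 8 hours had the lowest neuron mean (6.45) and the highest eggshell mean (13.10) of the 36 arrays. The part of tissue make-up in these swings was not tested. The test of late against early hours did not call SF minus CF (-0.12 at 2 to 18 hours and 0.15 at 24 to 72 hours, adjusted p = 0.598).

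The diet difference of the group was spread over the hours from 2 to 72. The median RF minus CF difference of the 21 genes was positive at 12 of 12 hours, from 0.03 at 24 hours to 0.14 at 48 hours. On the unreplicated 0 h pair the group did not lie higher in RF, with 9 genes positive, 12 negative and a median of -0.02. The V0 median was positive at 12 hours and the V1 median at 10, the V1 exceptions being 8 hours (-0.0031) and 24 hours (-0.01). In SF minus CF the median of the 21 genes ran from -0.07 at 8 hours to 0.10 at 2 hours and was positive at 8 hours of the 12. In SF minus RF it was negative at all 12 hours, from -0.17 at 72 hours to -0.0052 at 12 hours.

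**Figure D3:**
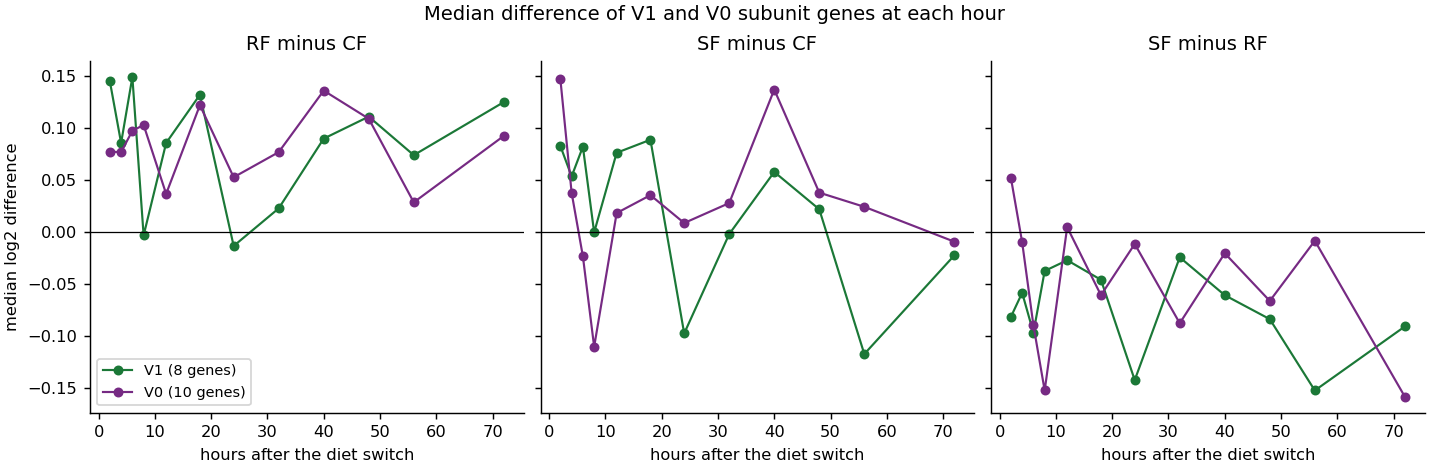
Median log2 difference (vertical axis) of the 8 V1 and the 10 V0 genes at each hour after the switch (horizontal axis) in the 3 comparisons. The RF minus CF medians stay between -0.01 and 0.15, and both parts of the pump cross 0 in SF minus CF.

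By limma 0 of 21 genes changed between 2 to 18 and 24 to 72 hours in RF minus CF, SF minus CF or SF minus RF, and 0% of all tests of this kind gave a call. At an unadjusted p under 0.05 there were 3, 0 and 0 of the 21, and 21.7%, 14.2% and 2.05% of all probe sets. The 3 were Vha36-3, VhaM9.7-a and VhaAC45RP. Vha36-3 went from 0.07 to 0.62 in RF minus CF (difference 0.55, SE 0.15, adjusted p = 0.369). VhaM9.7-a went from -0.06 to 0.44 (0.50, SE 0.20, adjusted p = 0.371) and VhaAC45RP from -0.23 to 0.21 (0.44, SE 0.20, adjusted p = 0.383). Over all 12 hours VhaM9.7-a did not pass by limma in RF minus CF (0.19, SE 0.12, adjusted p = 0.488), with same-hour differences from -0.73 to 0.75. When 24 to 72 hours were fitted alone, Vha36-3 and VhaM9.7-a were called higher in RF together with Vha100-4, which is 3 of 21 against 18.3% of all probe sets.

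**Figure D4:**
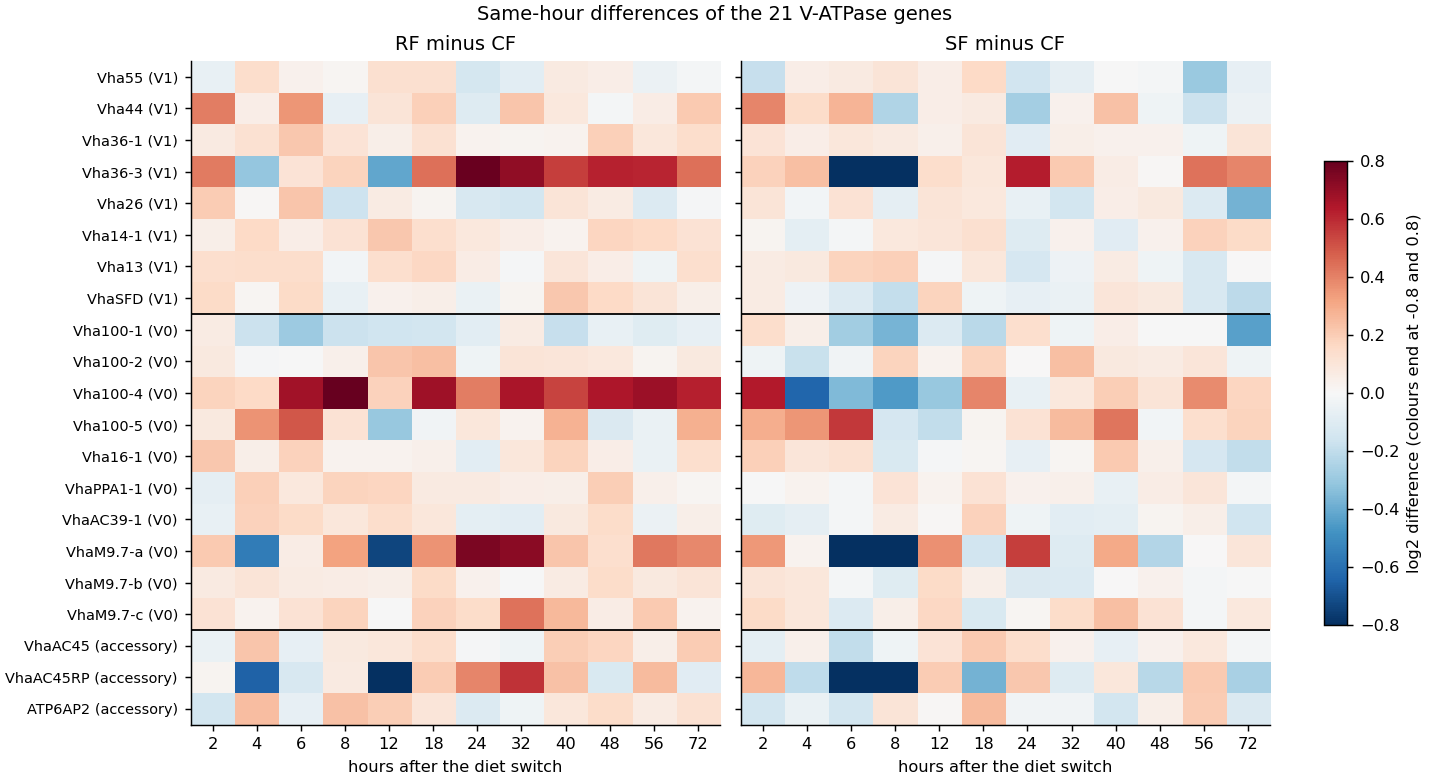
Same-hour log2 differences (colour, with the scale ending at -0.8 and 0.8) of the 21 genes (rows, with V1, V0 and accessory genes apart) at the 12 hours (columns) in RF minus CF and SF minus CF. Vha100-4 is positive in all 12 RF minus CF columns, while Vha36-3, VhaM9.7-a and VhaAC45RP are all negative in the RF minus CF columns of 4 and 12 hours and in the SF minus CF columns of 6 and 8 hours, and differ in sign in some others.

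A daily rhythm was fitted over the 24 CF and RF arrays with a period of 24 hours. By limma 0 of 21 V-ATPase genes were called, against 1.26% of all probe sets, with 3 of the 21 (Vha100-2, Vha36-1 and VhaSFD) and 10.1% of all at an unadjusted p under 0.05. The lowest p was that of Vha100-2, with an amplitude of 0.13 on the log2 scale and a peak 23.8 hours after the switch (adjusted p = 0.0769). When SF was added, Vha100-2 and Vha36-1 passed, 2 of 21 against 3.11% of all probe sets.

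Vha36-3, VhaM9.7-a and VhaAC45RP varied together across arrays, far more than most other members. Their scores had an SD of 0.40, 0.44 and 0.40 over the 36 arrays, while 17 of the 21 had an SD under 0.2 and Vha100-4 was the other exception, at 0.39. Pearson's r between them was 0.815 to 0.944 over the 36 arrays, against -0.573 to 0.629 with the other members, and it was 0.865 to 0.960 with cohort means removed. These 3 genes were singled out after their values were seen, and the values are a description. All 3 were lowest on the SF array of 8 hours (6.67, 7.38 and 7.56), where the neuron (6.45), photoreceptor (7.46) and flight muscle (8.79) means were also the lowest of the 36 arrays and the eggshell mean of 13.10 the highest. On the RF array of 12 hours they were at 7.14, 7.91 and 7.82, with a neuron mean of 6.66, a flight muscle mean of 9.17 and an eggshell mean of 12.71.

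Scores of these 3 genes followed the means of the neuron and flight muscle genes alike. Against the mean of 5 neuron genes the values were r = 0.751 (rho = 0.720) for Vha36-3, r = 0.842 (rho = 0.841) for VhaM9.7-a and r = 0.892 (rho = 0.890) for VhaAC45RP. Each had an adjusted permutation p of 7.6e-05 for r and 8.4e-05 for rho over 84 relations, and r was 0.691, 0.805 and 0.868 without the 2 farthest arrays. Within the cohorts r lay between 0.757 and 0.955 for Vha36-3, between 0.804 and 0.941 for VhaM9.7-a and between 0.873 and 0.947 for VhaAC45RP. Against the flight muscle mean r was 0.842 (rho = 0.835), 0.876 (rho = 0.888) and 0.860 (rho = 0.851) in that order, with the same adjusted p values, 0.791, 0.851 and 0.848 without the 2 farthest arrays, and 0.756 to 0.926 within cohorts. They were lower where eggshell transcripts were higher, with r = -0.673, -0.817 and -0.790. Vha13 went the other way, with r = -0.741 (rho = -0.748, adjusted p = 7.6e-05 and 8.4e-05) against the neuron mean, -0.842 in CF, -0.748 in RF and -0.762 in SF, and -0.733 without the 2 farthest arrays.

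Relations of this size with the tissue means were common on these arrays. Against the neuron mean, r was 0.5 or more for 5 of the 21 genes (23.8% of all tested probe sets) and -0.5 or less for 5 (31.8%). For the flight muscle mean these counts were 5 (24.1%) and 0 (28.8%), and for the eggshell mean 0 (31.3%) and 5 (23.5%). For the midgut mean r reached 0.5 in Vha36-1, Vha14-1, Vha100-4 and VhaPPA1-1, 4 of 21 genes against 1.55% of all probe sets, and was never at or under -0.5 (0.828%). The midgut mean was itself higher in RF than in CF at 12 of 12 hours, so r over the 36 arrays takes in that cohort difference. Within RF r was 0.171, 0.261, -0.197 and 0.1 for these 4 genes in that order. It was 0.479, 0.498, 0.448 and 0.395 in CF and 0.616, 0.728, 0.826 and 0.841 in SF. The neuron mean was 7.26 ± 0.38 (SD, n = 12) in CF, 7.20 ± 0.40 in RF and 7.18 ± 0.35 in SF, and the eggshell mean 11.74 ± 0.80, 11.61 ± 0.83 and 11.98 ± 0.70, with 0 genes of either list called by limma in any comparison and 0 at an unadjusted p under 0.05. Of the 7 flight muscle genes found, TpnC4 and up were called higher in RF than in CF (0.94, adjusted p = 8e-04, and 0.47, adjusted p = 0.0224) and Act88F lower (-0.75, adjusted p = 0.00875), while the 2 photoreceptor genes found held 0 calls by limma and 0 at an unadjusted p under 0.05. The part of these tissues in the V-ATPase values was not tested beyond the covariates. With the eggshell difference as a covariate, 4 members were called in RF minus CF, namely Vha36-3, Vha14-1, Vha100-4 and VhaM9.7-c, and 8.92% of all probe sets were.

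**Figure D5:**
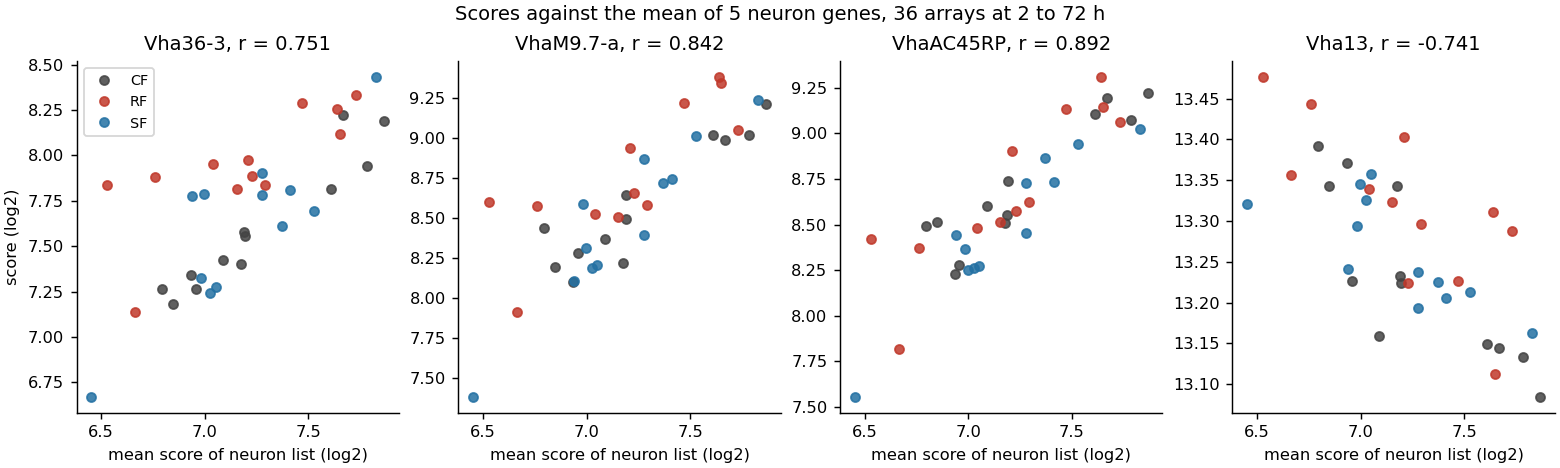
Log2 scores (vertical axes) of Vha36-3, VhaM9.7-a, VhaAC45RP and Vha13 against the mean score of 5 neuron genes (horizontal axes) on the 36 arrays at 2 to 72 hours, with cohorts as colours. The first 3 genes rise with the neuron mean (r = 0.751, 0.842 and 0.892), as they do with the flight muscle mean (r = 0.842, 0.876 and 0.860), and Vha13 falls (r = -0.741).

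The 11 genes with low scores were Vha68-3, Vha36-2 and Vha14-2 of V1 and Vha100-3, Vha16-2, Vha16-3, Vha16-4, Vha16-5, VhaPPA1-2, VhaAC39-2 and VhaM9.7-d of V0. Each belongs to a subunit that has another gene among the members or, for Vha68-3, one of the genes not analysed here. Nearest to the limit of 6 stood Vha16-4 at 5.45 below it and Vha36-3 at 7.72 above it. Without the filter 0 of the 11 were called by limma in any comparison. In that setting 592, 131 and 166 of all 18769 probe sets were called in RF minus CF, SF minus CF and SF minus RF. At an unadjusted p under 0.05 there were 1 in RF minus CF (Vha36-2, -0.13), 0 in SF minus CF and 1 in SF minus RF.

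Of the partners of the pump, 8 of 12 genes were found and all were tested. Lamtor4, the gene of a Ragulator subunit, was the 1 of 8 that passed between RF and CF, with RF higher by 0.20 (SE 0.039, adjusted p = 0.0089). Mitf was at 0.20 (SE 0.075, adjusted p = 0.219), and raptor, the gene of a TOR complex subunit, was the lowest at -0.07 (adjusted p = 0.61). The mean scores of Mitf and raptor, 6.68 and 6.03, lay close to the limit of 6 for testing. The median of the 8 was 0.05 in RF minus CF, -0.01 in SF minus CF and -0.08 in SF minus RF, with 0 called in the last 2.

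Among 16 tested genes of lysosomal proteins, RF against CF gave 3 calls upward and 1 downward, and the median difference was 0.01. LManV, the gene of a lysosomal mannosidase, was at 0.66 (SE 0.14, adjusted p = 0.0176) and was lower in SF than in RF, with a difference of -0.70 (SE 0.12, adjusted p = 0.00544). Its mean score of 6.47 lay close to the limit of 6 for testing. Npc2b, of the sterol-binding NPC2 family, was at 0.25 (SE 0.055, adjusted p = 0.0221) and Cln7 at 0.21 (SE 0.047, adjusted p = 0.0255), while the cathepsin gene CtsB was at -0.12 (SE 0.030, adjusted p = 0.0472). Of 11 genes of the mitochondrial ATP synthase, a related rotary machine that makes ATP, 0 were called by limma in any comparison. In RF minus CF 8 had an unadjusted p under 0.05 (23% of all probe sets), and the median was 0.07. The directions were like those of the V-ATPase genes. In RF minus CF 9 of the 11 were positive (46.1% of all), and in SF minus RF 10 were negative (47.3% of all), with a median of -0.07. Of the 4 Malpighian tubule genes found, Irk3 and Oatp58Dc were called higher in RF, at 0.31 (adjusted p = 0.00256) and 0.24 (adjusted p = 0.0187).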

How the data were processed

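RNA of female heads and thoraces was measured on Affymetrix Drosophila 2.0 arrays. The deposited values are log2 scores, which the authors made by quantile normalization and RMA (version not given in the sources used here). All 18952 probe sets are in the table, although the methods name a filter. Of these, 183 control probe sets were left out, and 9420 of the other 18769 with a mean score of at least 6 over the 36 arrays at 2 to 72 hours were tested. The platform annotation names 1 gene for 13647 probe sets, several for 402 and none for 4720, and symbols were updated through RefSeq (Release 6). Cohorts were compared with limma 3.58.1 (R 4.3.3) on the 12 same-hour differences, with the 28260 p values of the 3 comparisons adjusted together by Benjamini-Hochberg at 0.05. Hours were paired as in the study's methods. Same-hour RF and CF arrays deviated together (median r of 0.511 against -0.04 for other hours, over 0.1 in 10 of 12 hours), SF arrays less so (6 of 12 with CF and 5 of 12 with RF). The late test set 24 to 72 against 2 to 18 hours, and the rhythm test was a limma F test of a cosine and a sine. Correlations used 100000 permutations of the 36 arrays, made without regard to cohort or hour (numpy 2.4.6). Full values are given for called members, for the highest and lowest difference of each comparison and for the highest mean of V1, V0 and the accessory proteins. Other genes are named where called or at the end of a list. The members, gene lists and tests were chosen with earlier results of these data known. Alternatives were no pairing, no filter, centring, the methods' t-test, array weights, separate adjustment, a single fit, eggshell and midgut covariates, early or late hours, means of probe sets, the 0 h pair and leaving out each hour. The code was tested on simulated data. Precision is limited by the number of arrays, which hold no molecule counts.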

Additional observations from a re-analysis of the deposited data

Results flagged for a closer look

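Outside the tested hours, the 0 h arrays gave the largest RF minus CF difference of any member at any hour, at Vha100-4, which was lower in RF by -1.95 on the log2 scale, against 0.16 to 0.90 at the 12 hours from 2 to 72. The pair is 1 array for each cohort and has no replicate. The other 20 members lay between -0.43 and 0.78 at 0 hours, with 9 positive and 11 negative, and the range over all tested probe sets was -7.25 to 3.95.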

How the results depend on the processing

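The medians of the members in RF minus CF, SF minus CF and SF minus RF moved by less than their spread over hours with every alternative, the largest move being in SF minus RF, from -0.07 to -0.03 with arrays centred on their median, and SF minus CF held 0 called members throughout. The count of members called in RF minus CF was 1 without pairing by hour (no replicate block), without the filter and with arrays centred on their median, 0 with the midgut covariate and at 2 to 18 hours alone, 4 with the eggshell covariate and in 1 joint fit of the cohorts, 5 with each comparison adjusted on its own and with the methods' t-test after Benjamini-Hochberg adjustment, and 6 with that test after Storey's adjustment and with array weights. Leaving out 1 hour gave 1 to 3. In SF minus RF the count was 0 with the midgut covariate, at 2 to 18 hours alone, with separate adjustment and with the t-test after Benjamini-Hochberg, 2 with array weights, and 0 to 1 without 1 hour. Without pairing, Vha100-4 passed in RF minus CF (adjusted p = 0.00417) and Vha14-1 did not (adjusted p = 0.159). The daily rhythm count was 2 with all 36 arrays and 0 to 1 without 1 hour, and the late against early counts stayed at 0. The cause of these changes was not tested. Over all probe sets the RF minus CF count of 699 was 338 without pairing, 592 without the filter, 669 with centring, 566 in the joint fit, 840 with the eggshell covariate, 929 with separate adjustment, 629 and 781 by the t-test with Benjamini-Hochberg and Storey's adjustment, 1562 with array weights, 17 at 2 to 18 hours, 1723 at 24 to 72 hours and 32 with the midgut covariate. Without 1 hour the RF minus CF count was 497 to 816. The SF minus RF count of 184 was 9 with the midgut covariate, 1 at 2 to 18 hours and 117 with separate adjustment. It was 162 by the t-test with Benjamini-Hochberg, 905 with array weights and 121 to 259 without 1 hour. The daily rhythm count of 119 was 293 with all 36 arrays. Without 1 hour it was 77 to 933, the highest being without 18 hours.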
